A study of Mus musculus with 5 samples.

Results

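T cell coreceptors of the immunoglobulin family are surface proteins that strengthen or restrain the signal of the T cell receptor. The 10 genes described here, Tigit, Ctla4, Pdcd1, Lag3, Havcr2, Cd96, Cd226, Btla, Icos and Cd28, were picked by symbol from a table of 48440 genes, and all 10 had enough counts to be tested. They were read in 5 RNA-seq libraries of regulatory T cells (Tregs), which hold immune responses in check, isolated as CD4+CD25+ cells fresh from spleens with a magnetic bead kit and not treated in culture. All mice were C57B/6 on a high-fat diet. The 2 WT libraries carry the label WT and the 3 KO libraries the genotype label CD4-KLF10-KO, a knockout in CD4 T cells of KLF10, a zinc-finger transcription factor induced by TGF-β. How the deletion was driven, the ages and whether animals were pooled are not given in the labels, so p-values measure only the spread between these libraries, which may be technical. The first letter of the library codes also differs (A for WT, B for KO), and what it marks cannot be told apart from genotype. The comparison asks which coreceptor transcripts differ between KO and WT Treg preparations.

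Several of these proteins work as opposed pairs on shared ligands. CTLA4 and CD28 both bind CD80 and CD86 on antigen-presenting cells. CD28 gives the costimulatory signal, and CTLA4 binds more tightly and, on Tregs, can strip the ligands from the presenting cell. TIGIT, CD96 and CD226 share the ligand CD155 (encoded by Pvr), with TIGIT as an inhibitory receptor, CD226 as an activating one and CD96 holding both activities in the literature. ICOS is a CD28 relative that supports effector Tregs, PD-1 (Pdcd1), LAG-3, TIM-3 (Havcr2) and BTLA are inhibitory receptors, and TIGIT and ICOS are known for high expression on activated Tregs.

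The genes lie in a few chromosomal neighbourhoods (GRCm38, coordinates of the deposited table). Cd28 (ENSMUSG00000026012, chromosome 1, 60716800 to 60773359), Ctla4 (ENSMUSG00000026011, 60887000 to 60915832) and Icos (ENSMUSG00000026009, 60977927 to 61000320) follow each other on the plus strand within 283.5 kb. Pdcd1 (ENSMUSG00000026285, minus strand, 94038305 to 94052553) lies farther along the same chromosome. Chromosome 16 holds Tigit (ENSMUSG00000071552, minus strand, 43648861 to 43664184), Btla (ENSMUSG00000052013, plus strand, 45224315 to 45252895) and Cd96 (ENSMUSG00000022657, minus strand, 46035657 to 46120251). Lag3 is on chromosome 6 (ENSMUSG00000030124) and Havcr2 on chromosome 11 (ENSMUSG00000020399). All 10 are annotated as protein coding in GENCODE M21. Ctla4 overlaps the pseudogene Rpl18-ps1 and Icos the predicted gene Gm37039, both listed at 0 counts in every library.

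KLF proteins bind GC-rich and CACCC-type sites, so the 250 bases before the annotated start of Tigit, Pdcd1 and Ctla4 are shown, the first pair as the members with the highest KO levels against WT and Ctla4 as one with a similar level in both groups. The sequences are from RefSeq (GRCm38.p6), read in the direction of the gene, and capitals mark CACCC or GGGCGG on either strand (GGGTG and CCGCCC on the other). The windows are chr16:43664185-43664434 (minus strand), chr1:94052554-94052803 (minus strand) and chr1:60908775-60909024 (plus strand, inside an intron of the longer processed transcript Ctla4-203).
Tigit: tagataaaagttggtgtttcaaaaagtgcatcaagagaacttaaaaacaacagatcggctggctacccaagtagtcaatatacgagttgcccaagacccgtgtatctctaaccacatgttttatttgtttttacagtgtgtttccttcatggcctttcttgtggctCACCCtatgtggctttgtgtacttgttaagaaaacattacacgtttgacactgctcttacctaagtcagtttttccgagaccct
Pdcd1: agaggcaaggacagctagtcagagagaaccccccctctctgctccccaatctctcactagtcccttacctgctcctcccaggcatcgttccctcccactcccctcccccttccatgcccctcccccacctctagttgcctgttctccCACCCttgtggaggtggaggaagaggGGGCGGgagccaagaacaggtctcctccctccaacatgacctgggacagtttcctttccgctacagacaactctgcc
Ctla4: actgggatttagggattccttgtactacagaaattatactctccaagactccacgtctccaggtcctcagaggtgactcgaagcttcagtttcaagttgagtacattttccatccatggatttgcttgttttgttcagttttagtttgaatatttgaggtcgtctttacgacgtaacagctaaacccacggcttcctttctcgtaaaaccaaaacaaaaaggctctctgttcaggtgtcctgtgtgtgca
Tigit holds 1 CACCC match at 84 bases before the start, Pdcd1 holds 1 CACCC at 103 and 1 GGGCGG at 77 bases before it, and Ctla4 holds neither. The GC content of the windows is 40.0%, 60.4% and 42.4%. Of 32851 mouse promoter windows of the same length, 52.0% hold CACCC and 32.7% hold GGGCGG on either strand, so a match of this kind is common. Promoter entries were found for 6 of the 10 genes, and Havcr2 held 2 CACCC matches while Cd96 and Btla held neither motif. No binding was measured, and a match is a description of the letters only.

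The libraries held 25622614 to 30521797 counts. Klf10 (ENSMUSG00000037465), the targeted gene, was at 22.0 and 22.6 CPM in WT and at 16.0, 12.6 and 8.87 CPM in KO (CPM here is counts per 1000000 reads after TMM scaling, which corrects for differences in library composition). It was lower in every KO library but still present, and edgeR did not call it (log2 change −0.84, SE 0.22, adjusted p = 0.136), whereas DESeq2 did (adjusted p = 0.0195). Foxp3, the transcription factor that defines Tregs, was at 577 and 476 CPM in WT and 474, 489 and 477 CPM in KO. Its transcript was thus present in all 5 libraries, which does not measure purity. Of 12 Treg core genes, 3 were lower in every KO library and 0 higher, against 17.4% and 17.6% of all genes. These were Il2ra, Lrrc32 and Gpr83, named after their values were seen. Il2ra, which encodes CD25, was at 411 and 332 CPM in WT and 287, 277 and 267 CPM in KO (edgeR adjusted p = 0.104, DESeq2 adjusted p = 0.0089). The preparations also held RNA of other spleen cells, as the summed marker levels show. The 11 erythroid markers tested summed to 14690 to 20650 CPM in WT and 55870 to 92090 CPM in KO, and the 14 macrophage and monocyte markers to 550 to 785 CPM in WT and 1294 to 1650 CPM in KO, with all 14 higher in every KO library. The 14 pan-T cell genes summed to 3575 to 4128 CPM in WT and 3134 to 3296 CPM in KO, with a median log2 change of −0.30. In these bulk libraries fewer cells of a type and less RNA per cell cannot be told apart, so the members' changes are also given with the libraries scaled to those 14 pan-T cell genes, which raises log2 changes by a median of 0.26.

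**Figure D1:**
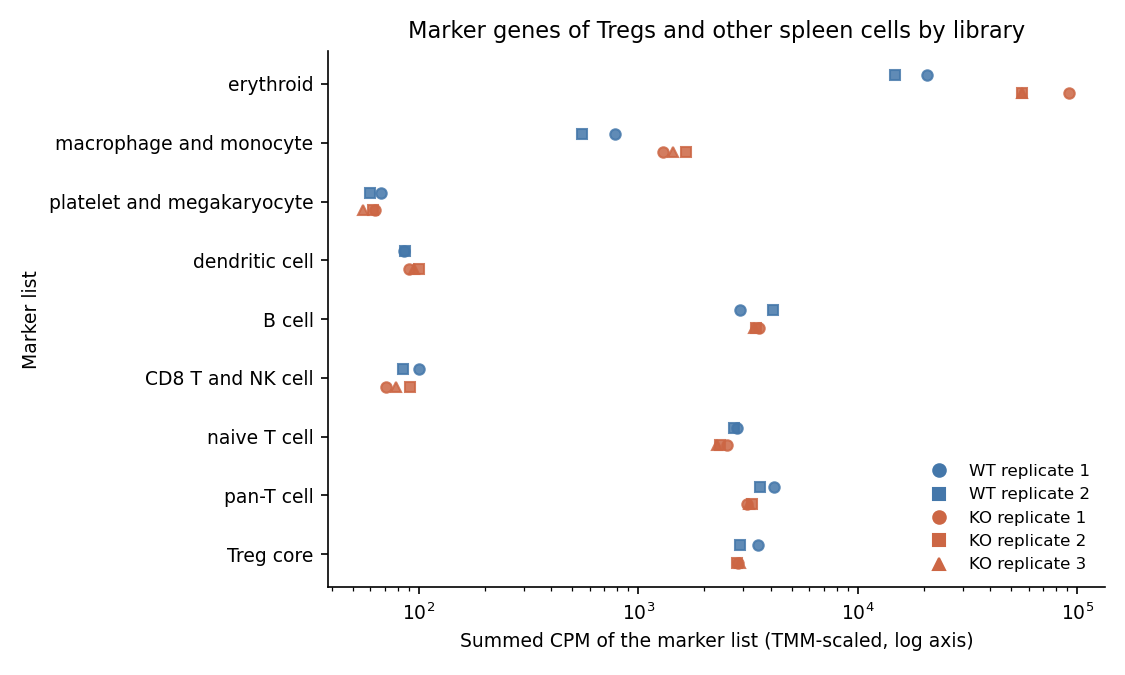
Summed TMM-scaled CPM of 9 marker lists (x axis, logarithmic) in each of the 2 WT (blue) and 3 KO (orange) libraries, with the symbol marking the replicate. The sums of erythroid, macrophage and dendritic cell markers are higher in every KO library, and those of pan-T cell and naive T cell markers lower. The Treg core sum is also lower, by a narrow margin (WT 3513 and 2901 CPM, KO 2823 to 2890 CPM). B cell markers overlap (WT 2904 and 4099 CPM, KO 3366 to 3553 CPM), as do the CD8 T and NK cell and the platelet lists.

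Ctla4 was the most abundant of the 10 transcripts and Havcr2 the least. Per gene length, as deposited TPM (transcripts per 1000000, which divides by gene length), the WT means ran from Ctla4 at 265 ± 31.3 (SD, n = 2) through Tigit at 138 ± 2.44, Btla at 103 ± 0.812, Cd96 at 101 ± 15.7, Icos at 73.2 ± 1.54, Cd28 at 60.4 ± 11.1, Pdcd1 at 48.3 ± 3.66, Lag3 at 47.1 ± 8.89 and Cd226 at 31.2 ± 6.16 to Havcr2 at 4.65 ± 0.364 TPM. In this order Btla and Cd96, and Pdcd1 and Lag3, had overlapping ranges, and the other neighbours did not. In KO, Ctla4 stood at 237 ± 19.9 TPM (SD, n = 3) and Tigit at 173 ± 26.0 TPM, again the first and second of the 10. Next came Btla (83.0 ± 15.4), Icos (72.8 ± 11.2) and Cd96 (72.6 ± 4.67 TPM), which overlapped each neighbour, and then Pdcd1 (55.6 ± 9.99), Lag3 (48.3 ± 9.11) and Cd28 (45.2 ± 1.71 TPM), which also overlapped. Cd226 (19.8 ± 0.871 TPM) and Havcr2 (4.88 ± 1.15 TPM) stood apart at the bottom. TPM is not corrected for library composition, so these levels order the genes within a group and do not compare KO with WT. For Ctla4, the mean TMM-scaled CPM was 242 in WT and 246 in KO. By its mean, Cd28 was in the sixth place in WT and the eighth in KO. Its range overlapped that of Lag3 in WT and those of Pdcd1 and Lag3 in KO, so the places are not firm.

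**Figure D2:**
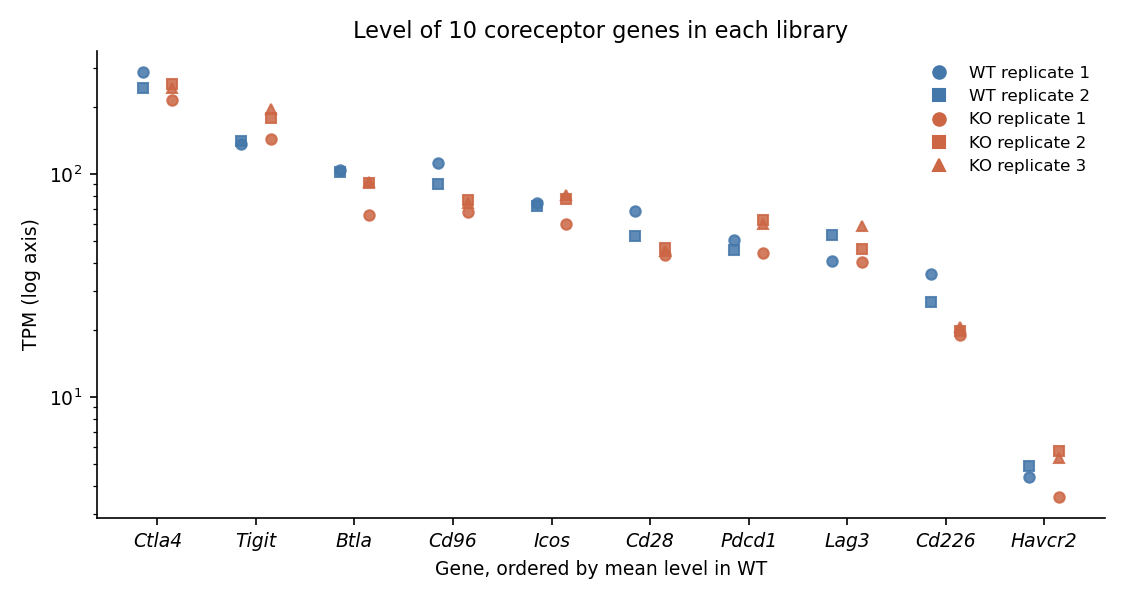
Deposited TPM (y axis, logarithmic) of the 10 coreceptor genes in each library, ordered by the WT mean, with WT in blue, KO in orange and the symbol marking the replicate. Ctla4 and Tigit lead in every library and Havcr2 is lowest, between 3.58 and 5.74 TPM.

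Tigit took a larger part of the coreceptor transcripts in every KO library. Of the summed TPM of the 10 genes, Tigit made up 14.95% and 16.9% in the WT libraries and 20.5%, 20.7% and 22.4% in the KO libraries. Ctla4 made up 31.4% and 29.2% in WT and 30.6%, 29.6% and 27.7% in KO, with overlapping groups. Cd226 made up 3.89% and 3.23% in WT and 2.70%, 2.30% and 2.37% in KO. Of the members not shown, Pdcd1 had a higher share and Cd96, Btla and Cd28 a lower share in every KO library. These shares do not depend on how the libraries are scaled. A share of a sum also rises where the other members fall. The summed TPM was 914 and 831 in WT and 703, 858 and 875 in KO replicates 1, 2 and 3.

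No coreceptor gene was called between KO and WT over all genes tested, and the members differed in direction. By edgeR's quasi-likelihood test with Benjamini-Hochberg adjustment over 14460 genes and a false discovery rate of 0.05, 0 of 10 were called in either direction, where the background was 0.228% of all genes called higher and 0.0553% called lower. At an unadjusted p under 0.05, 2 members (Tigit and Pdcd1) were higher, against 10.7% of all genes, and 2 (Cd226 and Cd96) were lower, against 5.62%. As TMM-scaled CPM, every KO value exceeded every WT value for 2 members (Tigit and Pdcd1), against 17.6% of all genes. Every KO value lay below both WT values for 4 members (Cd96, Cd226, Btla and Cd28), against 17.4%. The median log2 change was 0.09 over the members and −0.01 over all genes. DESeq2 called Tigit as higher and Cd226 as lower, against 5.84% and 1.51% of all genes.

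**Figure D3:**
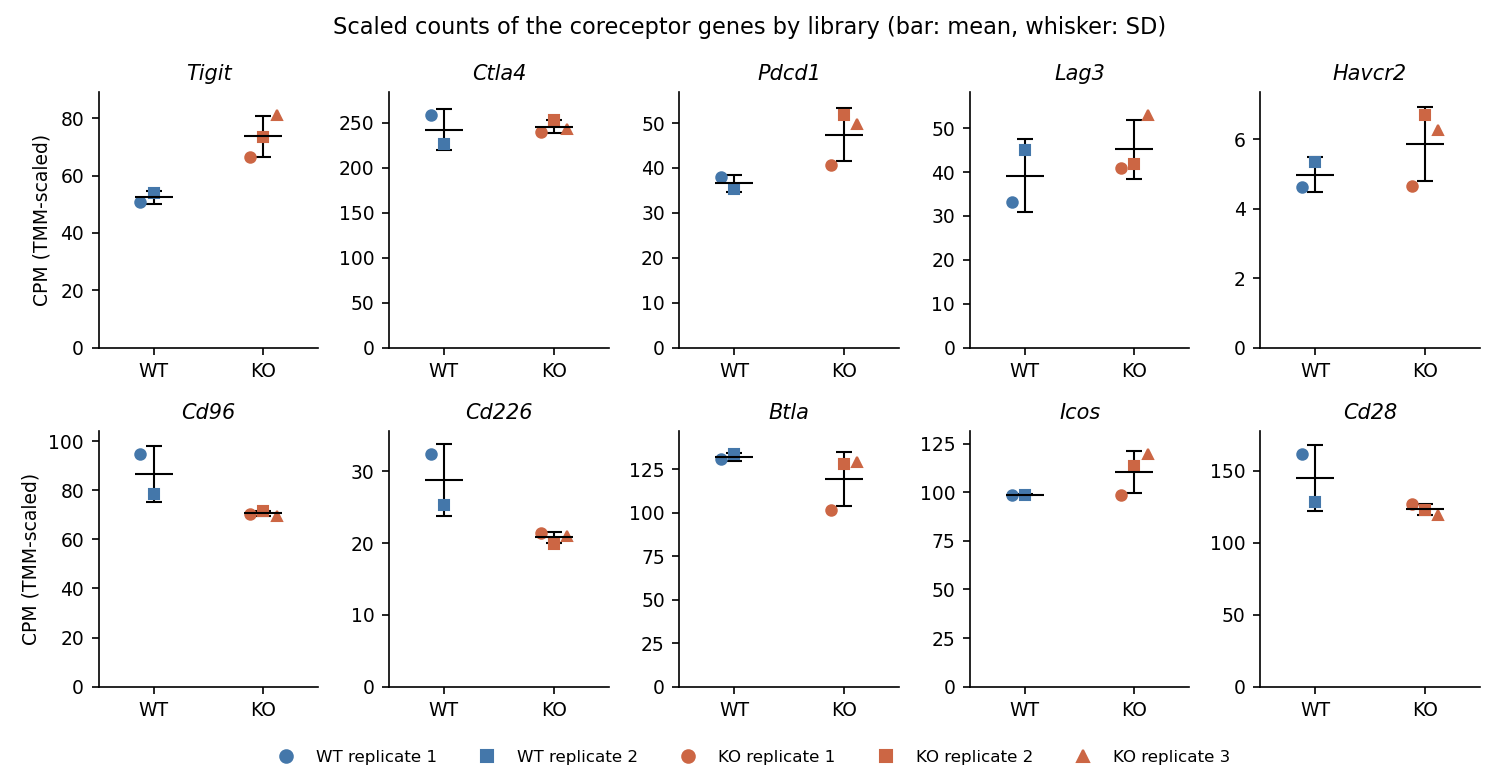
TMM-scaled CPM (y axis, starting at 0) of each coreceptor gene in the 2 WT (blue) and 3 KO (orange) libraries, with the mean as a bar and the SD as whiskers. Tigit and Pdcd1 lie higher in every KO library, Cd96, Cd226, Btla and Cd28 lower, and the other 4 genes overlap.

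Among the receptors of CD155, Tigit was higher and Cd226 and Cd96 were lower in every KO library. Tigit, the inhibitory receptor, was at 50.9 and 53.9 CPM in WT and at 66.5, 73.5 and 81.0 CPM in KO, from 1405 to 2475 counts a library. The lowest KO library stood above the highest WT library. Tigit was 1.41-fold higher (95% confidence interval 1.20 to 1.65; log2 change 0.49, SE 0.09), which edgeR did not call (adjusted p = 0.0775) and DESeq2 did (adjusted p = 9.8e-04). It passed when low genes were kept (edgeR adjusted p = 0.0285) and without KO replicate 1 (0.0294), and over the 5 settings that leave out 1 library the edgeR adjusted p ran up to 0.268. Scaled to the pan-T cell genes Tigit was 1.68-fold higher and rose (log2 change 0.75, SE 0.14, edgeR adjusted p = 0.0115), where 8.49% of all genes were called as higher. That call was lost without WT replicate 1 (edgeR adjusted p = 0.169).

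Cd226 (ENSMUSG00000034028, chromosome 18, plus strand, 89197431 to 89270201) encodes the activating receptor of this set. It was at 32.4 and 25.3 CPM in WT and at 21.4, 19.9 and 21.02 CPM in KO. The WT libraries differed from each other more than the KO libraries did, and both lay above all of KO. Its log2 change was −0.47 (SE 0.12), not called by edgeR (adjusted p = 0.120) and called by DESeq2 (adjusted p = 0.0344). On the pan-T cell scale the change was −0.20 as log2 (SE 0.12, edgeR adjusted p = 0.277) and the groups still did not overlap, which held for 1.73% of all genes in this direction.

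Cd96, the remaining CD155 receptor, was at 94.7 and 78.6 CPM in WT and at 70.5, 71.6 and 69.5 CPM in KO. The KO libraries lay close together and below both WT libraries. Its log2 change was −0.30 (SE 0.09, edgeR adjusted p = 0.166), or −0.16 without WT replicate 1, and scaled to the pan-T cell genes it was −0.03 (SE 0.10, edgeR adjusted p = 0.857). Cd96 and Cd226 are also expressed by natural killer and CD8 T cells, whose 10 markers tested summed to 84.5 and 100.3 CPM in WT and to 70.9 to 91.1 CPM in KO, with 4 of 10 lower in every KO library, against 17.4% of all genes. Of these markers edgeR called 0 and DESeq2 called 1 as lower (Eomes), against 1.51% of all genes by DESeq2. The part of these cells in the values of Cd96 and Cd226 was not tested.

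Ctla4 did not stand apart between the groups, and Cd28 was lower in every KO library by a small margin. Ctla4, the inhibitory receptor for CD80 and CD86, was at 259 and 226 CPM in WT and at 240, 254 and 243 CPM in KO, with the KO libraries between the WT libraries. Its log2 change was 0.02 (SE 0.08, edgeR adjusted p = 0.934), and the 95% confidence interval ran from −0.16 to 0.20, that is 0.893-fold to 1.15-fold. With pan-T cell scaling it was 0.29 (SE 0.11, edgeR adjusted p = 0.126). Under that scaling the log2 change was 0.27 without WT replicate 1 and 0.30 without WT replicate 2.

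Cd28, the main costimulatory receptor, was at 162 and 129 CPM in WT and at 127, 123 and 120 CPM in KO. WT replicate 2 and KO replicate 1 nearly met, and the groups did not overlap. The log2 change was −0.24 (SE 0.10, edgeR adjusted p = 0.324), without WT replicate 1 it was −0.06, and with pan-T cell scaling the direction turned (0.04, SE 0.11, edgeR adjusted p = 0.807). Icos, the CD28 relative, was at 98.5 and 98.8 CPM in WT and at 98.4, 114 and 120 CPM in KO. One KO library matched WT and the other two were higher (log2 change 0.16, SE 0.09, edgeR adjusted p = 0.441). Scaled to the pan-T cell genes its log2 change was 0.42 (SE 0.13, edgeR adjusted p = 0.0799). The 3 neighbours on chromosome 1 thus had log2 changes of −0.24, 0.02 and 0.16.

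Pdcd1, which encodes PD-1, was higher in every KO library after TMM scaling, but not as deposited TPM. As TPM it was at 50.8 and 45.7 in WT and at 44.1, 62.55 and 60.0 in KO, with KO replicate 1 below both WT libraries. The CPM values follow. It was at 37.9 and 35.2 CPM in WT and at 40.7, 51.7 and 49.9 CPM in KO. KO replicate 1 lay near WT and the other KO libraries well above it. The log2 change was 0.38 (SE 0.11, 1.30-fold), which edgeR did not call with all libraries (adjusted p = 0.178) and did without KO replicate 1 (log2 change 0.48, adjusted p = 0.0476). With pan-T cell scaling Pdcd1 rose (log2 change 0.64, SE 0.13, edgeR adjusted p = 0.0179), a call lost under that scaling without WT replicate 1 (edgeR adjusted p = 0.193) or KO replicate 2 (0.0652).

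Lag3, Havcr2 and Btla overlapped or nearly met between the groups. Lag3, a receptor for MHC class II, was at 33.3 and 45.0 CPM in WT and at 40.9, 41.7 and 52.9 CPM in KO (edgeR log2 change 0.21, SE 0.17, adjusted p = 0.595), and without WT replicate 1 the log2 change was 0.01. On the pan-T cell scale the Lag3 log2 change was 0.46 (SE 0.20, edgeR adjusted p = 0.169). Havcr2, which encodes TIM-3 and is also expressed by macrophages and dendritic cells, had 119 to 191 counts a library, or 4.62 and 5.34 CPM in WT and 4.66, 6.69 and 6.25 CPM in KO (edgeR log2 change 0.24, SE 0.20, adjusted p = 0.621). Its interval, from −0.25 to 0.73 on the log2 scale, is wide, and the change ran from 0.14 without KO replicate 2 or WT replicate 1 to 0.39 without KO replicate 1. On the pan-T cell scale the Havcr2 log2 change was 0.49 (SE 0.22, edgeR adjusted p = 0.177). The part of macrophages, whose markers were higher in KO, in the Havcr2 values was not tested. Btla, which B cells express as well, was at 131 and 134 CPM in WT and at 102, 128 and 129 CPM in KO (edgeR log2 change −0.15, SE 0.11, adjusted p = 0.581). Without KO replicate 1, the lowest library, the log2 change was −0.0354. On the pan-T cell scale the Btla change turned to 0.11 (SE 0.14). Among 12 markers of B cells the median log2 change was −0.02, and the part of these cells in the Btla values was not tested.

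**Figure D4:**
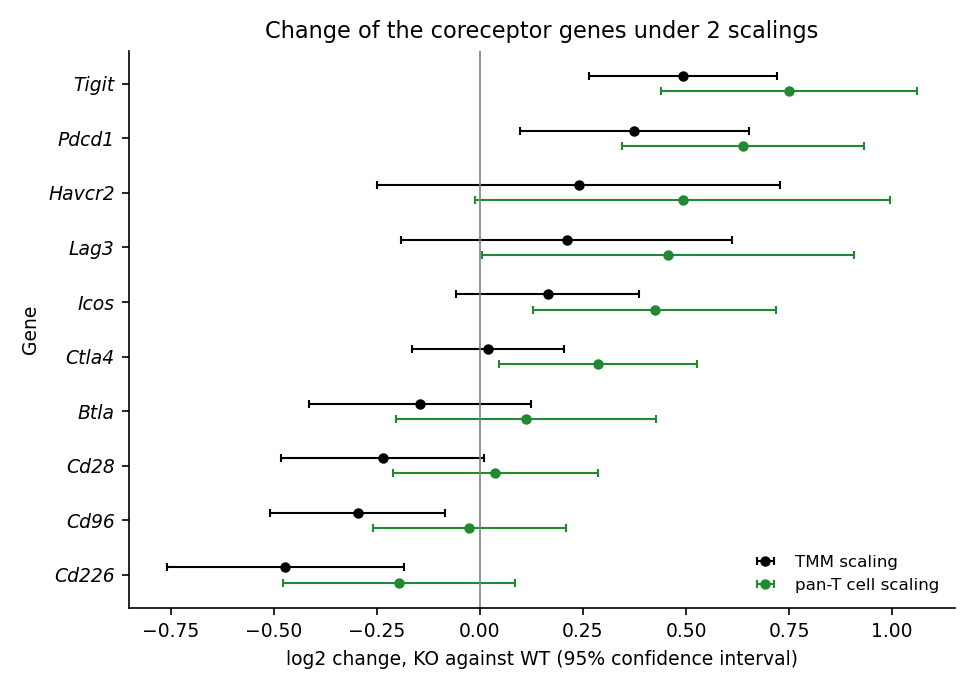
Fitted log2 change of KO against WT (x axis) with its 95% confidence interval for each coreceptor gene, with TMM scaling in black and pan-T cell scaling in green. Pan-T cell scaling moves every gene to the right, Tigit from 0.49 to 0.75 and Pdcd1 from 0.38 to 0.64, and turns the direction of Btla and Cd28.

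With the libraries scaled to the pan-T cell genes, 2 of the 10 members (Tigit and Pdcd1) were called as higher and 0 as lower, where 8.49% and 0.180% of all genes were called. The median log2 change was then 0.36 over the members and 0.25 over all genes. At an unadjusted p under 0.05, 5 members were higher (Tigit, Pdcd1, Icos, Ctla4 and Lag3), against 28.6% of all genes, and 0 were lower, against 0.615%. For the same 5 members every KO value exceeded every WT value, against 55.1% of all genes.

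Ratios between coreceptors within a library do not depend on scaling, and WT and KO did not overlap in 5 of the 6 pairs compared. The share of all gene pairs without overlap was not computed. Tigit was higher and Cd226 and Cd96 were lower in every KO library, so the ratios of Tigit to each were bound to separate. There were 1.57 and 2.13 Tigit counts per Cd226 count in WT and 3.11, 3.69 and 3.86 in KO. Every KO library lay above both WT libraries, and the log2 ratio was higher by 0.95 (SE 0.24), or 1.93-fold. For Tigit over Cd96 the ratios were 0.537 and 0.686 in WT and 0.944, 1.03 and 1.17 in KO, a log2 difference of 0.78 (SE 0.20). The ratio of Cd96 to Cd226 moved little, from 2.93 and 3.11 in WT to 3.29, 3.60 and 3.31 in KO (log2 difference 0.17, SE 0.06).

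Ctla4 over Cd28, the inhibitory over the costimulatory receptor for CD80 and CD86, was 1.60 and 1.76 in WT and 1.89, 2.07 and 2.04 in KO (log2 difference 0.25, SE 0.08). Icos over Cd28 was 0.610 and 0.769 in WT and 0.774, 0.925 and 1.001 in KO (log2 difference 0.39, SE 0.20), with WT replicate 2 and KO replicate 1 almost equal. Ctla4 over Icos overlapped, at 2.63 and 2.29 in WT and 2.44, 2.23 and 2.03 in KO (log2 difference −0.14, SE 0.12). For the 5 pairs without overlap the exact permutation test over libraries, two-sided, gave p = 0.20, the smallest it can give with 2 against 3, and 0.24 adjusted over the 6 pairs. For Ctla4 over Icos p was 0.40, by the same exact test. The pairs share genes, so they are not independent of each other.

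**Figure D5:**
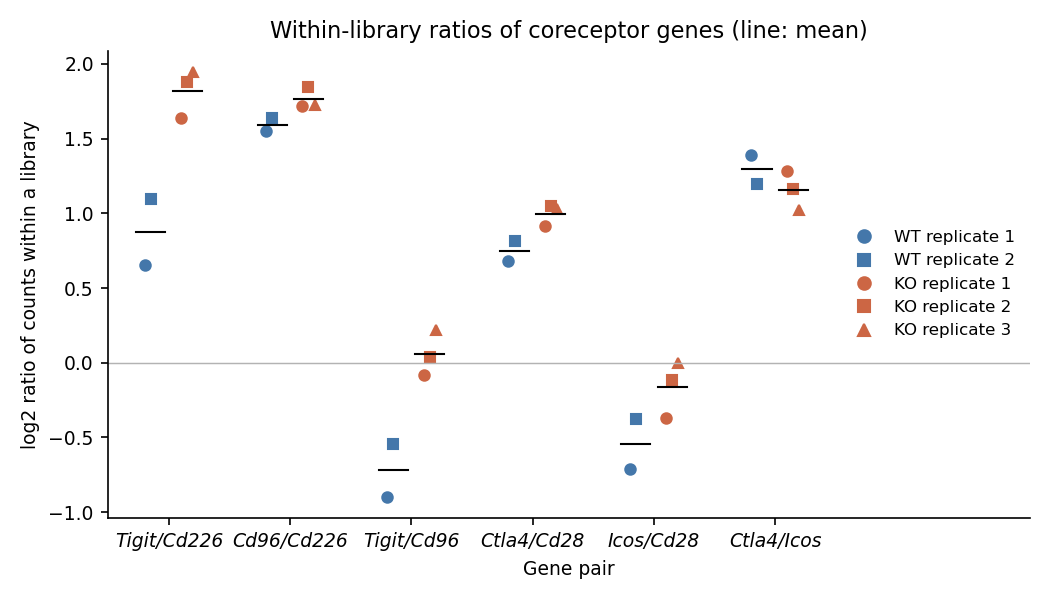
Log2 ratio of counts within each library (y axis) for the 6 coreceptor pairs, with WT in blue, KO in orange, the symbol marking the replicate and a line at each group mean. Tigit over Cd226 and Tigit over Cd96 show the widest gaps between the groups, and Ctla4 over Icos overlaps.

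Set against Foxp3 in the same library, 4 members were higher in every KO library, against 23.4% of all genes, and 3 were lower, against 4.06%. Tigit counts were 8.81% and 11.3% of the Foxp3 count in WT and 14.03%, 15.03% and 17.0% in KO. Ctla4 counts were 44.8% and 47.5% of it in WT and 50.7%, 51.9% and 51.0% in KO, so the KO libraries lay above WT by a narrow margin. Pdcd1 went from 6.57% and 7.40% to 8.59%, 10.6% and 10.4%, and Icos from 17.1% and 20.8% to 20.8%, 23.2% and 25.1%, nearly meeting. Cd96, Cd226 and Cd28 were the members below WT on this measure. Cd226 was at 5.61% and 5.30% in WT against 4.51%, 4.08% and 4.402% in KO. For Cd28, WT replicate 2 and KO replicate 1 nearly met, so its place among the lower members is not firm.

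The ligands of these receptors were measured in the same preparations, and which of them were called depended on the test and scaling. Of 14 listed ligand genes 12 were tested, 0 were called by edgeR. At an unadjusted p under 0.05, 2 were higher and 1 lower, against 10.7% and 5.62% of all genes, and the median log2 change was 0.15. DESeq2 called 2 as higher (Tnfrsf14 and Lgals3), against 5.84%, and edgeR with pan-T cell scaling called 3 (the same genes and Cd86), against 8.49%. The ligands named here were chosen after their values were seen. Pvr, which encodes CD155, was at 30.7 and 26.2 CPM in WT and 23.2, 22.0 and 20.9 CPM in KO (edgeR log2 change −0.37, SE 0.10, adjusted p = 0.138; −0.10 on the pan-T cell scale). Tnfrsf14, which encodes the BTLA ligand HVEM, was at 19.0 and 17.5 CPM in WT and 37.1, 30.1 and 26.4 CPM in KO (edgeR log2 change 0.77, SE 0.15, adjusted p = 0.0818, DESeq2 adjusted p = 8.0e-04). It rose on the pan-T cell scale (log2 change 1.04, edgeR adjusted p = 0.0067). Cd86, the ligand of CD28 and CTLA4, was at 32.3 and 28.5 CPM in WT and 32.0, 37.2 and 41.9 CPM in KO (edgeR log2 change 0.28, SE 0.13, adjusted p = 0.340), and it rose on the pan-T cell scale (log2 change 0.55, edgeR adjusted p = 0.0395). Macrophage markers were higher in the KO libraries, as Tnfrsf14 was, while Pvr was lower there. The 10 dendritic cell markers summed to 85.1 and 86.4 CPM in WT and 89.6 to 99.96 CPM in KO, and the part of such cells in the ligand values was not tested.

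Genes of coreceptor signalling and traffic were mostly at similar or slightly lower levels in KO. Of 25 tested, 0 were called by edgeR. At an unadjusted p under 0.05, 0 were higher and 7 lower, against 10.7% and 5.62% of all genes, and DESeq2 called 3 as lower, against 1.51% (median log2 change −0.09, and 0.17 with pan-T cell scaling). Prkcq, the kinase PKCθ downstream of CD28, was at 227 and 185 CPM in WT and 151, 154 and 142 CPM in KO (edgeR log2 change −0.47, SE 0.10, adjusted p = 0.0843; −0.20 on the pan-T cell scale). Prkcq was named after its values were seen, and its lower level went with those of the pan-T cell genes.

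Of 20 transcription factors that are known to act on coreceptor genes or on effector Tregs, 0 were called by edgeR. At an unadjusted p under 0.05, 3 were higher and 3 lower, against 10.7% and 5.62% of all genes, and DESeq2 called 1 as higher and 2 as lower, against 5.84% and 1.51% (median log2 change −0.06). Named after their values were seen, Maf, a factor of effector T cells, was at 179 and 170 CPM in WT and 224, 267 and 250 CPM in KO (edgeR log2 change 0.50, SE 0.09, adjusted p = 0.0723, DESeq2 adjusted p = 6.4e-05). Eomes, a factor of cytotoxic and memory T cells, was at 16.3 and 9.33 CPM in WT and 5.67, 6.58 and 5.37 CPM in KO (edgeR log2 change −1.13, SE 0.25, adjusted p = 0.0905). On the pan-T cell scale edgeR called 2 of the 20 as higher, Maf (adjusted p = 0.0062) and Myb (adjusted p = 0.0356), against 8.49% of all genes. It called 1 as lower, Eomes (edgeR adjusted p = 0.0328), against 0.180%.

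The profiles of Tigit and Ctla4 over the 5 libraries were set beside those of 7230 genes at or above the median level, by the root-mean-square difference of log2 CPM centred on each gene's mean. Tns3 (0.05), P2rx4 (0.06), Hip1 (0.06), Marcks (0.07) and Gpr55 (0.08) were most like Tigit, where the median gene stood at 0.28. Their log2 changes lay between 0.40 for P2rx4 and 0.57 for Tns3, and none was called by edgeR (adjusted p from 0.0745 for Marcks to 0.203 for Gpr55). Tmppe, Zkscan3, Eef1e1, Napg and Exoc8 were most like Ctla4, all at 0.02, where the median gene stood at 0.11. Both sets were picked for the smallest distances, so distances far below the median were bound to follow. The same holds for log2 changes near those of Tigit and Ctla4.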

How the data were processed

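Gene-level RNA-seq values of 2 WT and 3 KO libraries were used. The submitters' processing notes name Trimmomatic 0.36, STAR 2.5.2b and the GRCm38 build, and per the labels ribosomal RNA was removed before library construction. How counts were made, and whether by strand, is not given in the sources used here, so reads of overlapping or antisense genes cannot be told apart. The authors deposited whole-number counts for 48440 genes. They also deposited RPKM, which was not used, and TPM, which divides by gene length and sums to 1000000 in each library. The deposited CPM columns, whose sums ran from 976872 to 1054093, were treated as a score with an unknown library factor and not used. All columns were matched to libraries by the code in the labels.

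Counts were filtered with filterByExpr (14460 genes kept), TMM-scaled, then tested in R 4.3.3 by edgeR 4.0.16 (quasi-likelihood test, genotype as the only term), with Benjamini-Hochberg adjustment over all genes kept and a false discovery rate of 0.05. The SE of a log2 change is its size over the square root of F. DESeq2 1.42.0 was an alternative. Count ratios within a library, with 0.5 added, were compared with an exact permutation test in scipy 1.17.1. Total counts of 25622614 to 30521797 and a biological coefficient of variation of 13.1% set the precision, and no 2 libraries of a group were alike within counting noise (chi-square over its degrees of freedom 16.5 to 39.1). The script was tested on simulated data.

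The members and lists were chosen with earlier results of these data known. The naming rule took all members, list genes called by edgeR, the 5 genes most like Tigit and Ctla4, Klf10 and Foxp3. The called list genes were Themis (naive T cells, log2 change −0.76, edgeR adjusted p = 0.0492) and Adgre1, C1qc and Cd68 (macrophages, higher). Of the other marker lists, the 12 Treg core genes had a median log2 change of −0.13 (0 called by edgeR, 2 called lower by DESeq2, Il2ra and Lrrc32). The 10 naive T cell genes had −0.36 (1 called lower by edgeR, 5 lower and 1 higher by DESeq2). The 8 platelet and megakaryocyte genes had 0.51 (0 called by edgeR or DESeq2). Of all genes, edgeR called 0.0553% lower and 0.228% higher, and DESeq2 called 1.51% lower and 5.84% higher. The alternatives were DESeq2 size factors, pan-T cell scaling, leaving out genes of haemoglobin, immunoglobulins, T cell receptors, mitochondria and ribosomal RNA, no filter or a mean count of 50, a replicate block, a false discovery rate of 0.10, robust empirical Bayes, leaving out each library, and, for ratios, other pseudocounts or TPM. Leaving out a library under pan-T cell scaling was added after the data were seen.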

Additional observations from a re-analysis of the deposited data

How the results depend on the processing

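The number of genes called rested on the settings. It was 41 as reported, 1254 with pan-T cell scaling (1228 higher, 26 lower), 118 without genes of haemoglobin, immunoglobulins, T cell receptors, mitochondria and ribosomal RNA, 589 with no filter, 23 with a mean count of at least 50, 1022 by DESeq2 and 579 at a false discovery rate of 0.10, and ran from 1 (without KO replicate 2) to 334 (without KO replicate 1) when 1 library was left out. Where WT kept 1 library, that library was assumed to vary like the KO libraries. The number of coreceptor members called was 0 as reported, 2 with pan-T cell scaling (Tigit and Pdcd1), 1 with no filter (Tigit), 2 by DESeq2 (Tigit and Cd226), 1 at a false discovery rate of 0.10 (Tigit), 0 to 2 with 1 library left out and 0 to 5 with pan-T cell scaling and 1 library left out (5 without WT replicate 2). The cause of these shifts was not tested. WT and KO share the replicate numbers 1 and 2 in the labels, which say nothing of pairing, and deviations of same-numbered libraries correlated at −0.00014 and 0.062. With the replicate block 32 genes and 0 members were called, and Tigit had a log2 change of 0.42 (edgeR adjusted p = 0.118).

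The log2 changes of Tigit, Pdcd1, Lag3, Havcr2, Icos, Cd96 and Cd226 kept their direction under every alternative run. Tigit ran from 0.42 to 0.57 and Cd226 from −0.64 to −0.28 with 1 library left out. Ctla4 ran from −0.0751 (without WT replicate 2) to 0.119 (without WT replicate 1) and turned to −0.0039 without KO replicate 2. With pan-T cell scaling Btla turned to 0.112 and Cd28 to 0.0372. With a library also left out, Btla turned to 0.245, 0.206, 0.0799 and 0.0454 (without WT replicate 2 and KO replicates 1, 2 and 3) and Cd28 to 0.0908, 0.0012, 0.0571 and 0.0528 (without WT replicate 1 and KO replicates 1, 2 and 3). All 6 ratios kept their direction with other pseudocounts, TPM or 1 library left out. Tigit over Cd226 then ran from 0.73 to 1.17, Tigit over Cd96 from 0.60 to 0.95, Cd96 over Cd226 from 0.13 to 0.21, Ctla4 over Cd28 from 0.18 to 0.32, Icos over Cd28 from 0.22 to 0.55 and Ctla4 over Icos from −0.24 to −0.04 on the log2 scale. With 2 and 3 libraries a group, Havcr2, at under 200 counts a library, supports only large differences.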
